A study of Mus musculus with 12 samples.

Results

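The genes described here build the ribosome in the nucleolus: 39 genes for RNA polymerase I, the small nucleolar RNA-protein particles (snoRNPs), the nucleolar chaperones and the assembly factors of the small and large ribosomal subunits. They were chosen by name for their function. Of the 39, 38 could be measured, among 18193 genes on Affymetrix mouse expression arrays. Mrto4, a large subunit assembly factor, was not measured, because its probe set also pairs with pseudogenes. The arrays held 12 samples, 1 per mouse: medulloblastomas (MBs) of 8 mice, cerebellar granule neural progenitors (GNPs) of 2 mice and whole cerebellum of 2 mice, named by the mouse number (MB_706, CGNP_2698, WC_2646 and so on). The MBs arose in Nestin-Cre p53-/- mice whose floxed Xrcc4 was deleted in the neural lineage, with the genotype Xrcc4 c/- in 6 (MB_630, MB_794, MB_1187, MB_1197, MB_1207 and MB_1224) and Xrcc4 c/c in 2 (MB_706 and MB_1206). XRCC4 is required for non-homologous end-joining of DNA breaks, and p53 for the checkpoint that removes cells with such breaks. The study describes the GNPs and cerebellum as non-neoplastic tissue of age- and genotype-matched control animals; the labels give neither ages nor genotypes. Cre driven by the Nestin promoter acts in neural progenitors and their descendants, so other cells of a tumor or of the cerebellum keep Xrcc4. By the study's copy number table, MB_630, MB_794 and MB_1224 carried a gain of Myc, 7 of the 8 MBs (all but MB_1206) a gain of Mycn, and 5 a complex genome rearrangement.

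Ribosome biogenesis starts when RNA polymerase I transcribes the ribosomal DNA into a long precursor RNA. Box C/D snoRNPs then methylate that RNA and box H/ACA snoRNPs convert chosen uridines to pseudouridine, while large assemblies of helicases, methyltransferases and scaffold proteins fold and cut it into the 2 subunits. MYC proteins are known to activate many of these genes through the E-box sequence CACGTG, and large nucleoli are a known feature of rapidly growing tumor cells.

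The E-box and an ETS factor motif were looked for in the promoters of the members. Windows from 250 bases before to 50 bases after the annotated start (RefSeq, GRCm38.p6) were given for 34 of the 39 members, and 7 of the 34 (20.6%) held CACGTG, which reads the same on both strands, against 8.09% of 27025 genes. These were Imp4, Ltv1, Nop2, Pes1, Tsr1, Utp20 and Wdr43. The letters CCGGAAGT on either strand, a form of the ETS motif, stood in 6 of the 34 (17.6%; Gar1, Heatr1, Ltv1, Nhp2, Ppan and Tsr1) against 4.31%. These shares are descriptions, and a match in a window does not show that a factor binds there. The 3 windows below belong to the members with an E-box that differed most between MBs and GNPs; they are shown 5′ to 3′ on the strand of the gene, with the E-box in capitals. In Utp20 (chr10:88826765-88827064, minus strand) the E-box begins 37 bases downstream of the start, in Wdr43 (chr17:71615965-71616264, plus strand) 17 bases downstream, and in Nop2 (chr6:125131633-125131932, plus strand) 60 bases upstream.
Utp20: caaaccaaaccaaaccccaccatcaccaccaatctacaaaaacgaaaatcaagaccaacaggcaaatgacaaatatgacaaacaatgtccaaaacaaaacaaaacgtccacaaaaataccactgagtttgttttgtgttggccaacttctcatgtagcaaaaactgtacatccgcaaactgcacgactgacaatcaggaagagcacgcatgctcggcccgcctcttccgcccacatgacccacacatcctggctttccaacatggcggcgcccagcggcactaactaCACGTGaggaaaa
Wdr43: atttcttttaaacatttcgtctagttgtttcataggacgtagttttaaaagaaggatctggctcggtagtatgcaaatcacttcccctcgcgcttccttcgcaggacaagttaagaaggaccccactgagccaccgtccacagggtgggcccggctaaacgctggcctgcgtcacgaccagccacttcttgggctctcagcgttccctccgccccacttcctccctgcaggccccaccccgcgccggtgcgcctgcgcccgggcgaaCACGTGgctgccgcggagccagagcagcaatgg
Nop2: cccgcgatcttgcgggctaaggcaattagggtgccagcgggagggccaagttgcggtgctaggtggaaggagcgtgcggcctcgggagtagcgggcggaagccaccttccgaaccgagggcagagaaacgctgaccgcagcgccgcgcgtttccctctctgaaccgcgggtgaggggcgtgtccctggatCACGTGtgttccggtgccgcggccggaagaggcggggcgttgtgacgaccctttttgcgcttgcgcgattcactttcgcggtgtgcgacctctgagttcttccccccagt
The median difference between MBs and GNPs was 1.35 (log2) for the 7 measured members with the E-box and 1.64 for the 26 without it. The ranges overlapped, from 0.30 to 2.41 with the motif and from -0.12 to 2.76 without it. Whether the motif goes with the difference was not tested.

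All values below are log2 expression levels as deposited, where an increase of 1 is a doubling of the signal; the lowest value on the arrays is 2.2, and 5 is used as a level for description. Between 42.2% and 43.4% of the probe sets stood above 5 on each array. RNA of the library of MB_706 differed from the rest, with 3′ control probe sets 2.93 above the 5′ ones whereas this gap spanned 0.56 to 0.82 among the 7 remaining MBs and 0.15 to 0.52 in normal tissue. The 8 granule lineage markers averaged 9.31 to 10.35 over all samples, but single markers moved in opposite directions. Atoh1, the transcription factor that marks granule progenitors, had a mean of 11.95 in the MBs, 5.95 in the GNPs and 2.76 in cerebellum, so it was far lower in the samples labelled as progenitors than in the tumors. Gabra6, which mature granule neurons use in a GABA receptor, had 4.41, 3.91 and 13.08, and Cbln1 10.08, 11.94 and 13.17. The 7 markers of dividing cells averaged 9.11 to 9.96 in the MBs, 5.70 to 6.0 in the GNPs and 2.48 to 2.61 in cerebellum, where none of the 7 was above 5. Those of microglia (8 genes) averaged 7.77 to 9.12, 4.76 to 6.04 and 6.06 to 6.23. The Purkinje cell markers (6 genes) averaged 2.81 to 5.39, 3.65 to 3.74 and 10.07 to 10.15. The mesenchymal markers (7 genes) averaged 3.23 to 6.15, 6.54 to 6.77 and 4.40 to 4.56, and so were highest in the GNPs. Astroglial markers (8 genes) averaged 5.01 to 7.13, 7.59 to 7.67 and 8.69 to 8.70. Oligodendrocyte markers (7 genes) had 3.60 to 5.50, 4.90 to 6.29 and 9.50 to 9.51, and endothelial ones (7 genes) 2.72 to 4.47, 2.55 to 2.62 and 4.86 to 4.90. Markers of other cell types and of division therefore moved with the groups, and their part in the differences below was not tested. In bulk RNA, a change in the number of cells of a type and a change in RNA per cell cannot be told apart.

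Of the 38 members, 28 were called higher in the MBs than in both normal tissues, and none was called lower than either. Against GNPs 30 of 38 rose and 8 did not pass the test (limma, adjusted p under 0.05), where 18.7% of all genes and 32.4% of genes with a mean above 5 were called higher and 18.6% of all genes lower. In these 30, every MB lay above both GNP samples, a separation seen for 21.2% of all genes. The median difference over the 38 members was 1.56, a 2.95-fold higher signal, beside 0 over all genes and 0.12 over genes above 5, and only Nop16 had a difference below 0. Against cerebellum 35 of 38 rose, where the background of genes called higher was 22.2% (39.8% of genes above 5) and of those called lower 21.8%, and the median difference was 1.82 (3.53-fold). In these 35, every MB lay above both cerebellum samples, as did 24.3% of all genes, and no member had every MB below them, as 22.6% of all genes did. Between the normal tissues 8 of 38 members (21.1%) were higher in GNPs and none lower, with a median difference of 0.47, where 14.9% of all genes and 23.2% of genes above 5 were called higher, a share close to that of the members. The mean over the 38 members was 8.69 ± 0.27 (SD, n = 8) in the MBs, 7.24 and 7.32 in the GNPs and 6.85 and 6.87 in cerebellum. Without MB_706 the counts were 31 against GNPs and 34 against cerebellum. The comparisons share the MBs or the normal samples, so they are not independent of each other. The labels name a different mouse for every sample, and with 2 mice in each normal group, the spread is carried mostly by the MBs.

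**Figure D1:**
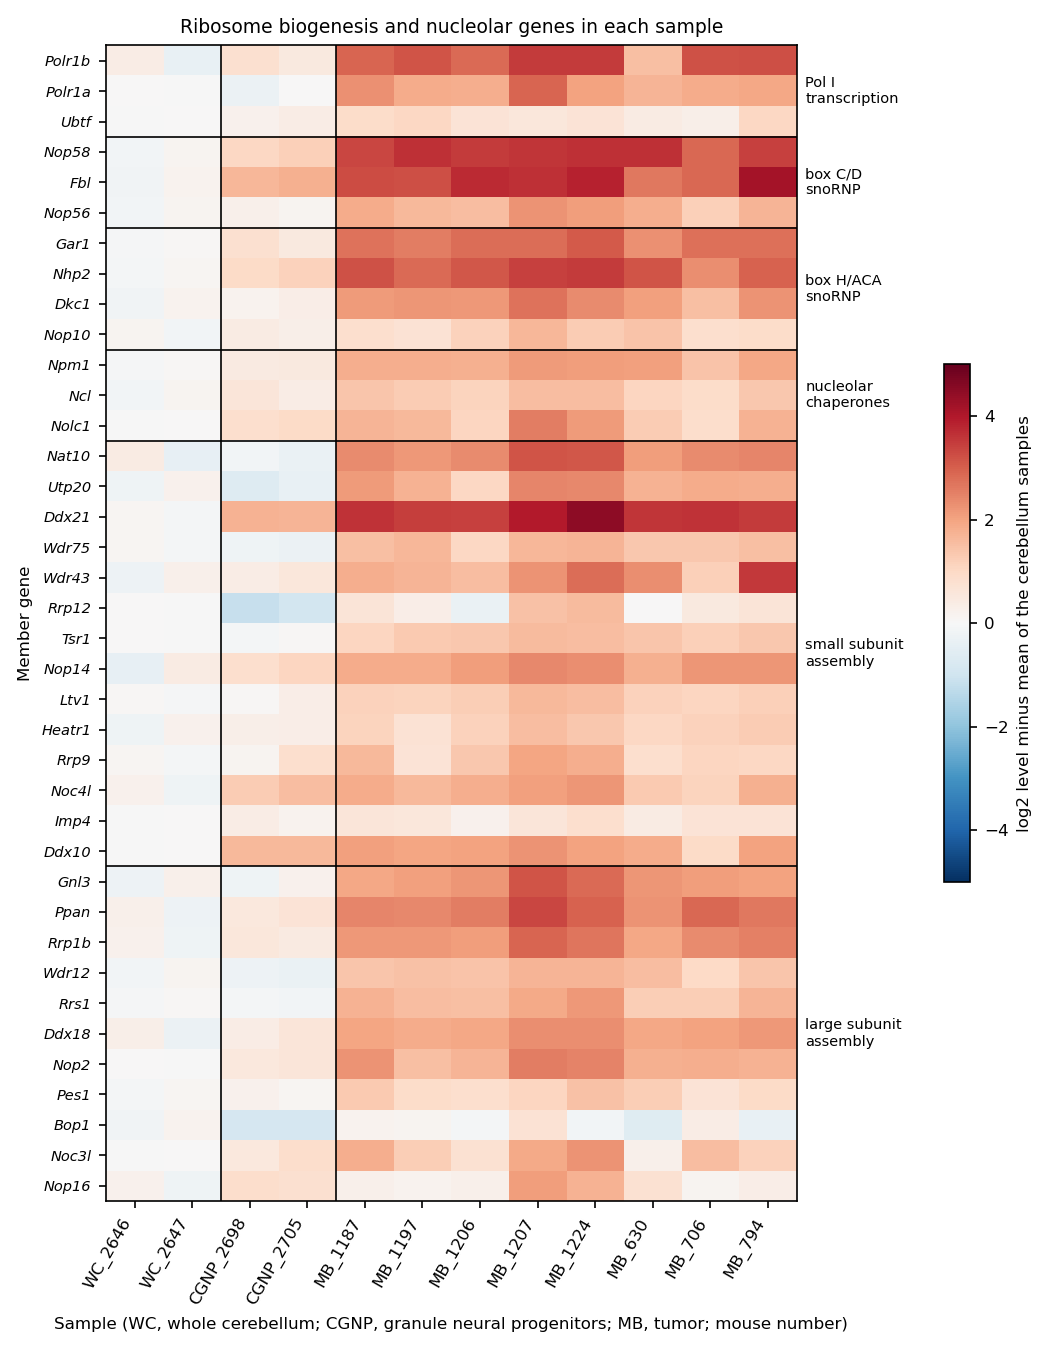
Log2 level of each measured member (rows, by role) in each sample (columns) minus the mean of the 2 cerebellum samples; red is higher and blue lower than cerebellum. The 8 MB columns are red for nearly every gene, the CGNP columns are pale, and Bop1, Imp4 and Rrp12 are the rows with the smallest mean difference between MBs and cerebellum (0.02, 0.57 and 0.61).

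Of the RNA polymerase I genes, both catalytic subunits rose against both normal tissues, and the promoter factor was called against cerebellum only. Polr1a, the largest subunit, had a lowest, median and highest level of 5.43, 5.63 and 6.65 in the MBs, 3.44 and 3.77 in the GNPs, and 3.74 and 3.73 in cerebellum. All MBs lay above all normal samples. The difference was 2.17 against GNPs (standard error 0.27, adjusted p = 1.55e-04, limma) and 2.04 against cerebellum (adjusted p = 1.63e-04). Polr1a includes an averaged probe set near the lowest value of the arrays (0.01 against GNPs), which lowers its mean difference. Its other averaged probe sets differed from GNPs by 3.56, 3.02 and 2.11. Polr1b, which pairs with it in the catalytic core, stood at 5.56, 7.22 and 7.55 in the MBs, 4.87 and 4.54 in the GNPs, and 4.42 and 3.68 in cerebellum. It was higher by 2.32 (standard error 0.46, adjusted p = 0.00259) and 2.97 (adjusted p = 3.99e-04), with MB_630 far below the other MBs. Ubtf, the upstream binding factor that opens ribosomal DNA for transcription, had 7.43, 7.81 and 8.15 in the MBs, 7.33 and 7.49 in the GNPs, and 7.10 and 7.14 in cerebellum. The MBs overlapped the GNPs, and the difference of 0.42 against GNPs did not pass (adjusted p = 0.111), while 0.71 against cerebellum did (adjusted p = 0.0112). Its 2 probe sets differed, at 0.91 (called alone, adjusted p = 5.64e-04, limma) and -0.07 against GNPs. The call against cerebellum was lost without WC_2646 (adjusted p = 0.0798) or WC_2647 (0.0635), and Ubtf was called against GNPs without MB_706 (0.48, adjusted p = 0.047).

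All 3 box C/D proteins rose in the MBs. Nop58, a scaffold protein on which box C/D snoRNPs assemble, had the clearest separation of the group, with 11.22, 11.90 and 12.01 in the MBs, 9.41 and 9.57 in the GNPs, and 8.22 and 8.50 in cerebellum. Its difference was 2.32 against GNPs (standard error 0.19, adjusted p = 8.35e-06, limma) and 3.45 against cerebellum (adjusted p = 2.8e-07). Fbl, the methyltransferase fibrillarin, had 10.86, 11.68 and 12.39 in the MBs, 9.90 and 9.99 in the GNPs, and 8.06 and 8.39 in cerebellum, so that GNPs lay between the MBs and cerebellum. It was higher by 1.70 (adjusted p = 0.00386) and 3.42 (adjusted p = 2.91e-05). Nop56, the partner scaffold of Nop58, had 10.48, 11.04 and 11.55 in the MBs, but 9.54 and 9.45 in the GNPs and 9.14 and 9.44 in cerebellum. Its GNP and cerebellum samples were close, and it differed by 1.56 (adjusted p = 4.9e-04) and 1.76 (adjusted p = 1.54e-04).

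The 4 box H/ACA proteins rose as well. Gar1, which frees the modified RNA from the enzyme, stood at 9.86, 10.33 and 10.65 in the MBs, 8.38 and 8.04 in the GNPs, and 7.51 and 7.64 in cerebellum (difference 2.08 and 2.72, adjusted p = 7.55e-06 and 6.4e-07, limma). Nhp2, a core RNA-binding subunit, had 10.29, 11.10 and 11.46 in the MBs, 8.93 and 9.12 in the GNPs, and 7.86 and 8.05 in cerebellum, and was higher by 1.99 and 3.06. Dkc1, the pseudouridine synthase dyskerin, had 10.30, 10.98 and 11.52, against 8.96 and 9.14 in the GNPs and 8.63 and 8.97 in cerebellum (1.91 and 2.17). None of these 3 had a tumor within the range of the normal samples. Nop10, a small protein that links the subunits, showed the weakest rise of the 4, with 10.57, 10.88 and 11.52 in the MBs, 10.24 and 10.14 in the GNPs, and 9.96 and 9.72 in cerebellum. Its difference against GNPs was 0.76 (adjusted p = 0.026), and it was lost without CGNP_2698 (adjusted p = 0.103) or CGNP_2705 (0.158). With its probe set of highest signal alone, the difference from GNPs was 0.59 and did not pass (adjusted p = 0.0964). Against cerebellum the averaged difference was 1.11 (adjusted p = 0.00277).

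Of the nucleolar chaperones, Npm1 and Ncl rose against both tissues. Npm1, or nucleophosmin, which carries histones and ribosomal proteins, had 13.34, 13.78 and 14.04 in the MBs, 12.37 and 12.38 in the GNPs, and 11.84 and 11.97 in cerebellum, with differences of 1.41 and 1.88 (adjusted p = 6.16e-05 and 5.17e-06, limma). Ncl, or nucleolin, which binds the precursor RNA, stood at 9.33, 9.72 and 9.98, against 9.01 and 8.79 in the GNPs and 8.27 and 8.56 in cerebellum (0.79 and 1.28). Its smaller difference, against GNPs, no longer passed without CGNP_2705 (0.68, adjusted p = 0.0595). Nolc1, which binds both snoRNPs and RNA polymerase I, had 8.09, 8.86 and 9.78 in the MBs, 8.05 and 8.15 in the GNPs, and 7.19 and 7.23 in cerebellum. It overlapped the GNPs, where the difference of 0.73 did not pass (adjusted p = 0.171), and was 1.62 higher than cerebellum (adjusted p = 0.00555). With its probe set of highest signal alone the difference from GNPs was 1.55 (adjusted p = 0.00438).

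**Figure D2:**
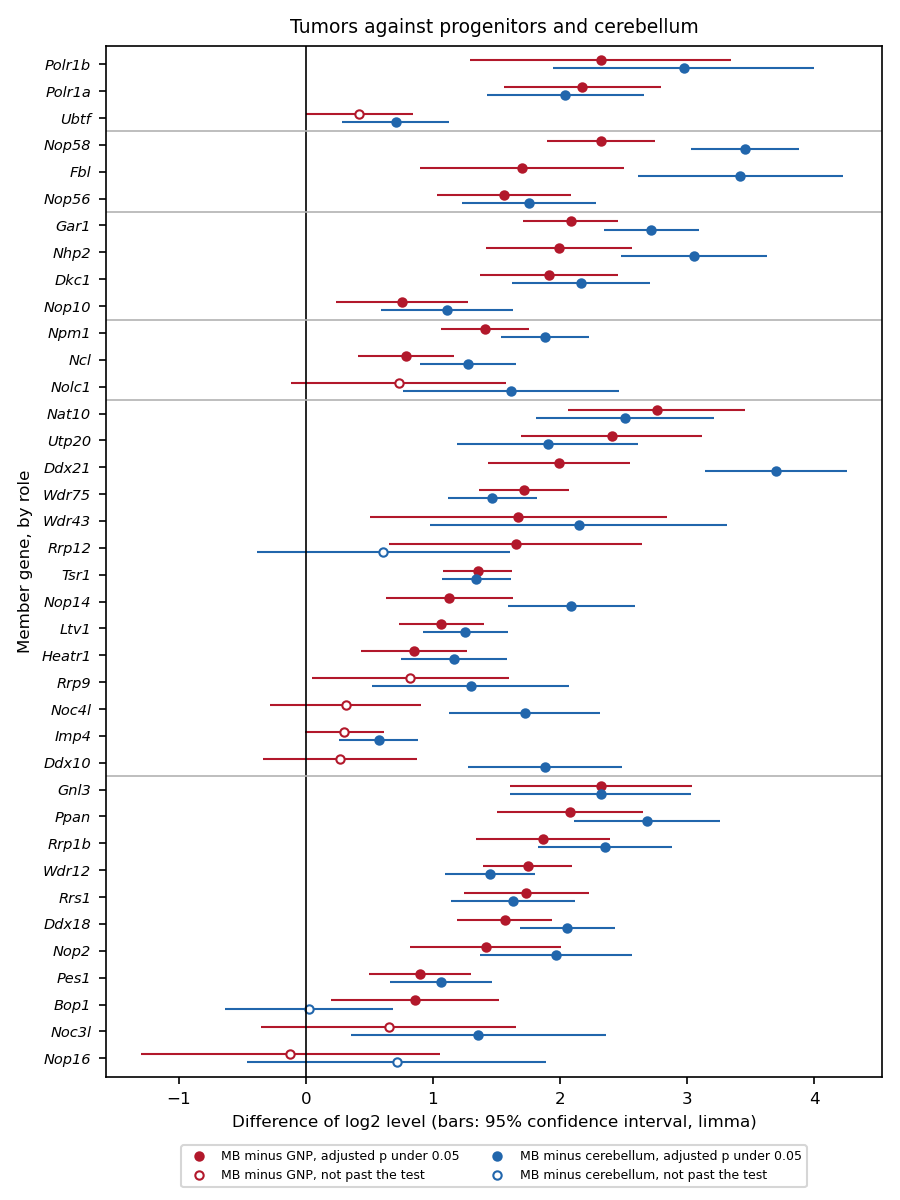
Difference of log2 level (x axis) of each measured member (y axis, by role) between MBs and GNPs (red) and between MBs and cerebellum (blue), with the 95% confidence interval from limma; filled points passed the test. Filled red points number 30 and filled blue points 35, and no filled point lies below 0.

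Among the 14 small subunit factors, 10 rose against GNPs and 13 against cerebellum. Nat10, which acetylates the small subunit RNA, had the largest difference of all members from GNPs by the mean over averaged probe sets. Single probe sets of Polr1a differed more. Its lowest, median and highest level was 7.31, 7.60 and 8.38 in the MBs, with 5.07 and 4.87 in the GNPs and 5.63 and 4.81 in cerebellum. All MBs were above all normal samples, by a mean of 2.76 (standard error 0.31, adjusted p = 7.35e-05, limma) and 2.51 (adjusted p = 9.33e-05). Utp20, a scaffold of the early small subunit particle, had 8.57, 9.37 and 9.97 in the MBs, 6.87 and 7.17 in the GNPs, and 7.32 and 7.72 in cerebellum, so the GNPs were at the low end (2.41 and 1.90). Ddx21, a helicase that couples polymerase I transcription to RNA processing, had 9.08, 9.24 and 10.15 in the MBs, 7.39 and 7.35 in the GNPs, and 5.75 and 5.58 in cerebellum. It stepped down from MBs to GNPs to cerebellum, and its 3.70 against cerebellum was the largest of the 38 (standard error 0.25, adjusted p = 1.25e-06), beside 1.99 against GNPs. MB_1224 held its highest value.

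The proteins that bind the precursor RNA while it is being made were higher by 0.86 to 1.72 against GNPs. Wdr75 stood at 8.22, 8.67 and 8.89 in the MBs, 6.96 and 6.89 in the GNPs, and 7.29 and 7.06 in cerebellum (1.72 and 1.47, adjusted p = 1.83e-05 and 3.31e-05, limma). Wdr43 had 8.06, 8.88 and 10.39, against 7.24 and 7.41 in the GNPs and 6.60 and 7.10 in cerebellum, and the MBs were widely spread, with MB_794 highest. Its difference of 1.67 against GNPs (adjusted p = 0.0288) was lost without CGNP_2698 (0.158) or CGNP_2705 (0.119), and the 2.15 against cerebellum (adjusted p = 0.00677) without WC_2646 (0.0761). Heatr1 had 4.13, 4.58 and 4.96 in the MBs, 3.70 and 3.77 in the GNPs, and 3.19 and 3.65 in cerebellum, and was the only member whose mean over probe sets was below 5 in every sample. Of its 3 probe sets 2 lay near the lowest value, and the other had means of 8.26 in the MBs, 5.96 in the GNPs and 5.21 in cerebellum. The averaged differences of 0.86 and 1.17 (adjusted p = 0.00455 and 5.04e-04) therefore understate that of this probe set, 2.31 and 3.05.

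Of the 4 factors of the U3 snoRNP and the Nop14 complex, Nop14 alone rose against both tissues, and the others rose against cerebellum. Nop14 had 8.38, 8.77 and 9.01 in the MBs, 7.44 and 7.69 in the GNPs, and 6.21 and 7.01 in cerebellum (1.13 and 2.09, adjusted p = 0.00253 and 3.14e-05, limma). Noc4l, its partner, had 7.01, 7.69 and 8.09 in the MBs, 7.13 and 7.44 in the GNPs, and 6.08 and 5.68 in cerebellum. The MBs enclosed the GNPs (0.32, adjusted p = 0.447), and lay 1.72 above cerebellum (adjusted p = 3.96e-04). With the probe set of highest signal, Noc4l was called against GNPs too (1.27, adjusted p = 7.92e-04). Imp4, which brings the U3 RNA to the precursor, had 5.58, 6.0 and 6.22 in the MBs, 5.76 and 5.54 in the GNPs, and 5.36 and 5.39 in cerebellum. Only cerebellum was passed (0.30, adjusted p = 0.116, and 0.57, adjusted p = 0.00634). Without MB_1206 the 0.36 against GNPs was called (adjusted p = 0.0182), and without WC_2646 the 0.56 against cerebellum was not (adjusted p = 0.0541). Rrp9, a protein of the U3 snoRNP, had 5.20, 5.73 and 6.49 in the MBs, 4.64 and 5.35 in the GNPs, and 4.61 and 4.43 in cerebellum. It overlapped the GNPs (0.82, adjusted p = 0.0919), and its 1.30 against cerebellum (adjusted p = 0.0115) was lost without WC_2646 (0.0558) or WC_2647 (0.0914).

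The later small subunit factors Tsr1 and Ltv1, which act on the exported particle, rose against both tissues. Tsr1 stood at 9.08, 9.37 and 9.59 in the MBs, 7.93 and 8.10 in the GNPs, and 8.06 and 7.99 in cerebellum (1.35 and 1.34, standard error 0.12 for each, adjusted p = 1.68e-05 and 1.06e-05, limma). Ltv1 had 9.16, 9.26 and 9.70, against 8.15 and 8.41 in the GNPs and 8.15 and 8.02 in cerebellum (1.07 and 1.26). For both, the normal tissues were alike in level and all MBs stood above them. Rrp12, which accompanies both subunits out of the nucleus, had 5.98, 6.87 and 7.86 in the MBs, 5.13 and 5.38 in the GNPs, and 6.31 and 6.28 in cerebellum. Cerebellum lay within the MB range (0.61, adjusted p = 0.34), and the 1.65 against GNPs (adjusted p = 0.0142) was lost without CGNP_2698 (0.109) or CGNP_2705 (0.0661). Ddx10, a helicase of the early particle, had 7.13, 8.19 and 8.43 in the MBs, 7.79 and 7.82 in the GNPs, and 6.17 and 6.21 in cerebellum. It differed by 0.27 from GNPs (adjusted p = 0.558) and by 1.88 from cerebellum (adjusted p = 2.43e-04). Its 2 probe sets opposed each other against GNPs, at 1.01 (called alone, adjusted p = 7.31e-04, limma) and -0.47. Without MB_706, where the second of them fell to 4.88 against 6.70 to 6.98 elsewhere in the MBs, the difference of 0.40 was called (adjusted p = 0.00329).

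Of the 11 large subunit factors measured, 9 rose against GNPs and 9 against cerebellum. Gnl3, the GTPase nucleostemin, had 10.99, 11.20 and 12.19 in the MBs, 8.84 and 9.24 in the GNPs, and 8.79 and 9.29 in cerebellum. The normal tissues were level with each other, and the MBs were 2.32 above each (adjusted p = 2.62e-04 and 1.85e-04, limma). Ppan stood at 8.35, 8.69 and 9.43 in the MBs, 6.62 and 6.76 in the GNPs, and 6.34 and 5.84 in cerebellum (2.08 and 2.68). Rrp1b had 7.59, 7.90 and 8.53, against 6.19 and 6.07, and 5.86 and 5.42 (1.87 and 2.36). Rrs1, which helps to place an RNA of the large subunit, had 10.41, 10.80 and 11.36, against 9.09 and 9.04, and 9.10 and 9.25 (1.74 and 1.63). In these 4 genes the lowest MB was more than 1 above the highest normal sample. Ddx18, a helicase, had 7.75, 7.90 and 8.22 in the MBs, 6.30 and 6.50 in the GNPs, and 6.20 and 5.62 in cerebellum (1.57 and 2.06). Nop2, a methyltransferase of the large subunit RNA, had 8.18, 8.47 and 9.22, against 7.19 and 7.27, and 6.71 and 6.64 (1.41 and 1.97, adjusted p = 0.00194 and 1.64e-04).

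Of the PeBoW complex, needed for large subunit RNA processing, Wdr12 and Pes1 rose against both tissues and Bop1 against GNPs only. Wdr12 had 8.09, 8.51 and 8.77 in the MBs, 6.82 and 6.73 in the GNPs, and 6.92 and 7.22 in cerebellum (1.75 and 1.45, adjusted p = 1.6e-05 and 3.54e-05, limma). Pes1 had 7.35, 7.68 and 8.11, against 6.88 and 6.76 in the GNPs and 6.58 and 6.74 in cerebellum (0.90 and 1.06, adjusted p = 0.0027 and 7.23e-04). Both were above all normal samples in every MB. Bop1 had 6.06, 6.66 and 7.37 in the MBs, 5.79 and 5.82 in the GNPs, and 6.45 and 6.83 in cerebellum. It differed by 0.86 from GNPs (standard error 0.29, adjusted p = 0.0434) and by 0.02 from cerebellum (95% confidence interval -0.64 to 0.68). Its call against GNPs was the least stable of the members: it was lost without any 1 of CGNP_2698 (adjusted p = 0.185), CGNP_2705 (0.173), WC_2646 or WC_2647 (0.0552 each) and MB_1187 (0.0681), MB_1197 (0.0672), MB_1206 (0.0583), MB_1224 (0.0547) and MB_706 (0.0633). Its 2 probe sets differed by 0.31 (not called alone, adjusted p = 0.33, limma) and 1.41 from GNPs.

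Noc3l and Nop16 had the widest spread over the MBs in this group, with an SD of 0.65 and 0.76 (n = 8). Noc3l, which binds Noc2l in the early large subunit particle, had 4.04, 5.16 and 6.02 in the MBs, 4.30 and 4.66 in the GNPs, and 3.75 and 3.80 in cerebellum. The MBs overlapped the GNPs (0.65, adjusted p = 0.324, limma). Its difference of 1.36 from cerebellum (adjusted p = 0.0321) was lost without WC_2646 (0.154) or WC_2647 (0.134) and without MB_1187 (0.0506) or MB_706 (0.0503). Nop16 had 4.84, 4.97 and 6.76 in the MBs, 5.54 and 5.49 in the GNPs, and 4.90 and 4.46 in cerebellum, and was the only member called in none of the 3 comparisons. It differed by -0.12 from GNPs (95% confidence interval -1.29 to 1.06) and by 0.72 from cerebellum (adjusted p = 0.345). Its brighter probe set stood at 9.54 in MB_1207 and 8.69 in MB_1224, 7.12 to 7.36 elsewhere in the MBs, and 8.60 and 8.39 in the GNPs.

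Some of these genes carry snoRNA genes inside their annotated span. This held for 8 of the 39 members (20.5%; Nop56, Nop58, Dkc1, Ncl, Wdr43, Tsr1, Ppan and Gnl3) against 1.70% of 21896 protein-coding genes in the annotation. All 8 rose against both normal tissues. Most members did: 30 of the 38 measured rose against GNPs and 35 against cerebellum, beside 18.7% and 22.2% of all genes. Only positions were compared, so neither a shared strand nor a place in an intron was checked. The arrays measured the mRNAs of the members, and the snoRNAs themselves were not analysed here.

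The 8 members higher in GNPs than in cerebellum, a share near the 23.2% of genes above 5, were as follows. Fbl differed by 1.72 (standard error 0.45, adjusted p = 0.0176, limma), Ddx21 by 1.71 (0.00253), Ddx10 by 1.61 (0.00541), Noc4l by 1.41 (0.0104) and Nop58 by 1.13 (0.00551). Nhp2 (1.07, adjusted p = 0.0332), Nop14 (0.96, 0.0283) and Gar1 (0.64, 0.0486) passed more narrowly. Of the 8 members, 6 rose again from GNPs to MBs, and the other 2, Ddx10 and Noc4l, did not pass that test. Another 22 members were higher in the MBs than in both tissues with no call between the tissues, 5 only against cerebellum, and Bop1 and Rrp12 only against GNPs. Bop1 and Rrp12 had the lowest differences between GNPs and cerebellum, -0.84 (adjusted p = 0.135) and -1.04 (0.21), followed by Utp20 at -0.50 (0.44). The count of 8 depended on single libraries: it was 4 without CGNP_2698, 3 without CGNP_2705, and 5 without WC_2646 or WC_2647. Ddx10, Ddx21 and Nop58 passed without any 1 of the 12 samples. Nhp2 was lost without either GNP (adjusted p = 0.0813 and 0.147) or either cerebellum sample (0.149 and 0.0826), Fbl and Nop14 without either GNP or WC_2646 (up to 0.0979 and 0.216), and Noc4l without CGNP_2705 (0.068) or WC_2647 (0.0732). Gar1 was lost without any 1 of the 4 normal samples (up to 0.263) or MB_1187, MB_1197, MB_1206, MB_1207, MB_706 and MB_794 (up to 0.068). With each array shifted to the same median of genes above 5, Bop1 was called lower in GNPs (-0.97, adjusted p = 0.0378). In Imp4, Pes1, Tsr1 and Wdr75 the probe sets above 5 took opposite directions here, from -0.27 to 1.03 in Imp4 and from -0.77 to 0.28 in Wdr75.

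The study's copy number table allowed the tumors with a gain of Myc to be compared with the rest. No member differed between the 3 MBs with Myc gain and the 5 without after adjustment by limma, and no gene of all 18193 did (background 0% in each direction); 2 members had an unadjusted p under 0.05, and the methods' t-test gave 2 before and none after adjustment. The median difference of the members was 0.09, with 30 of 38 above 0. Over all genes the median was 0, with 10126 of 18193 above 0, and of the genes above 5, 4153 of 8370 were above 0. In 9 members the probe sets above 5 took opposite directions by Myc gain. For 36 members the groups overlapped. Wdr43, which carries an E-box in its window, did not overlap: it stood at 10.39, 9.63 and 9.19 in MB_794, MB_1224 and MB_630 and at 8.06 to 9.11 in the 5 others. Its difference was 1.18 (standard error 0.33, adjusted p = 0.872). This rests on 1 probe set. A brighter probe set of Wdr43, not averaged because of its suffix, did overlap, with 10.40 in MB_630 and 10.57 in MB_1207, and differed by 0.68. A higher, non-overlapping level was seen in 1.26% of all genes. Bop1, the only member on chromosome 15, where Myc lies, was lower with the gain, at 6.06 to 6.49 against 6.55 to 7.37. The difference was -0.64 (standard error 0.20, adjusted p = 0.99), with 2.03% of all genes lower without overlap. These members were singled out of 38 because their groups do not overlap, which by itself brings the two-sided exact permutation p close to the smallest that 56 splits allow, 0.0179 (Wdr43 0.0179 and Bop1 0.0357). The confidence intervals for the remaining members reached at most 1.71 and at least -1.49, and differences within these bounds could not be told from 0 with these tumors.

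**Figure D3:**
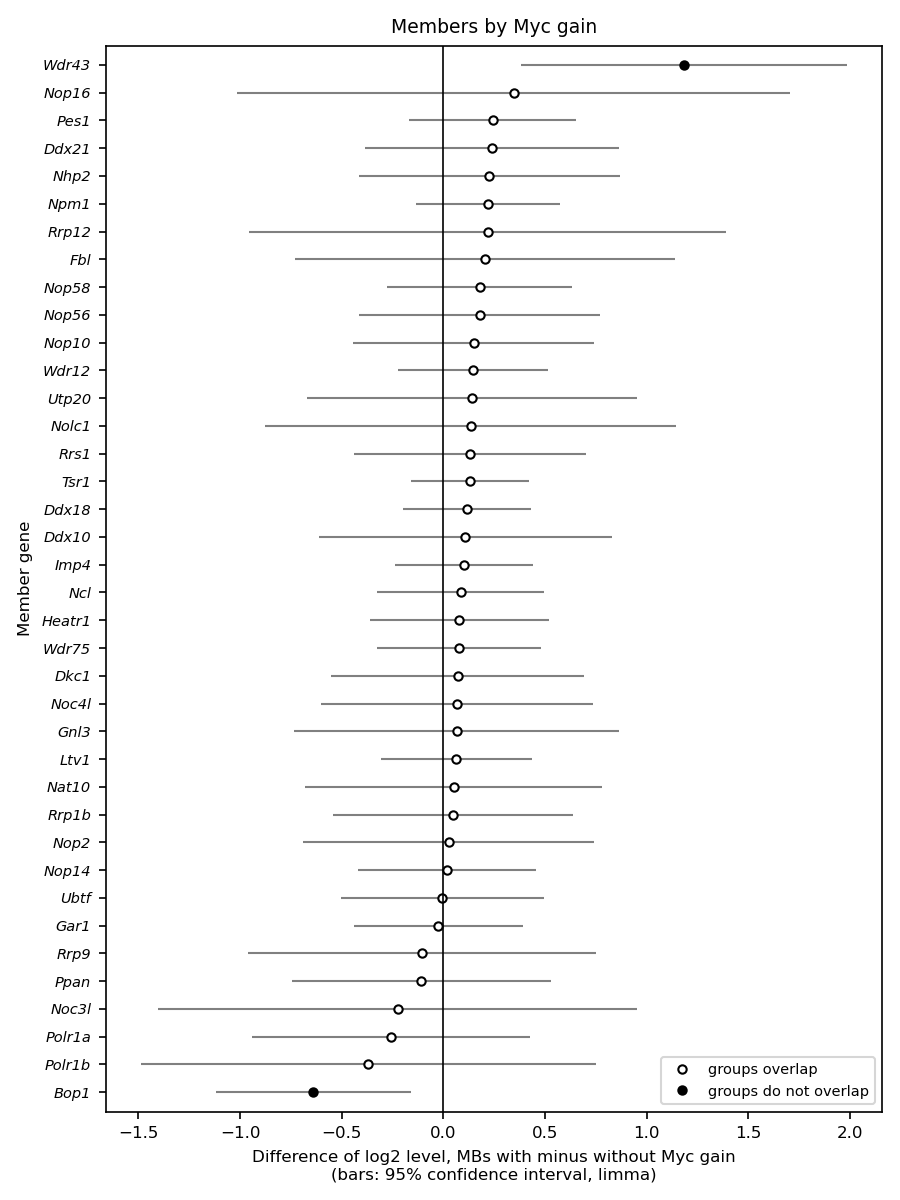
Difference of log2 level (x axis) of each measured member (y axis, sorted) between the 3 MBs with and the 5 MBs without Myc gain, with the 95% confidence interval from limma. Filled points mark the members whose groups do not overlap, Wdr43 at 1.18 and Bop1 at -0.64; the other intervals all include 0.

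The tumors also differed among themselves, and those named here were singled out after their values were seen. MB_1207, with no Myc gain, was the highest MB for 22 of 38 members (57.9%, against 19.2% of genes above 5) and above the median of the other MBs for 37. MB_1224, with Myc gain, was the highest for 13 (34.2%, against 12.9%) and above the median of the others for 36. The mean over the members was 9.12 in MB_1207 and 9.07 in MB_1224, and from 8.42 to 8.72 in the other 6. Myc and Mycn did not follow 1 order here. MB_1207 had the lowest Myc of the MBs (7.34) and the highest Mycn (9.46), while MB_1224 had the highest Myc (11.47) and a Mycn of 7.86. MB_630, with a Myc of 10.99 and Myc gain, had a mean over the members of 8.45 and was the lowest MB for 10 of them (26.3%, against 18.6% of genes above 5). MB_706 was the lowest for 16 (42.1%, against 19.9%), or for 7 (18.4%) with the probe set of highest signal; that setting left MB_1207 highest for 21 and MB_1224 for 13.

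In MB_1207 and MB_1224 the median member of each of the 6 role groups stood above the median of the other MBs. The median deviation was 0.71 and 0.50 over the 11 large subunit factors, 0.40 and 0.42 over the 14 small subunit factors, and 0.43 and 0.34 over the 4 box H/ACA proteins, for MB_1207 and MB_1224. It was 0.41 and 0.42 over the box C/D proteins, 0.30 and 0.28 over the chaperones, and 0.35 and 0.17 over the RNA polymerase I genes, where MB_1187 (0.25) lay above MB_1224. Over genes above 5 it was 0.01 and 0.02. The marker genes of dividing cells also stood higher in these tumors, with means of 9.96 and 9.76 against 9.11 to 9.61 in the others, and their 7 genes were above the median of the other MBs in both. Markers of other cells stood lower. The astroglial markers had means of 5.01 and 5.46 against 6.41 to 7.13, the microglial ones 7.99 and 7.77 against 8.04 to 9.12, and the granule lineage, Purkinje cell and oligodendrocyte markers also had their lowest means in these MBs. The part of cell composition in the order of the tumors was not tested. The other genes of the pathway showed the same sign in these tumors at a smaller size, with a median deviation of 0.27 and 0.17 for the 40 other small subunit factors. The 44 ribosomal proteins did not separate MB_1207, where 21 were above the median of the other MBs, but 38 were in MB_1224. The SD of a member over the 8 MBs ranged from 0.17 to 0.76, with a median of 0.35, beside 0.27 for genes above 5.

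**Figure D4:**
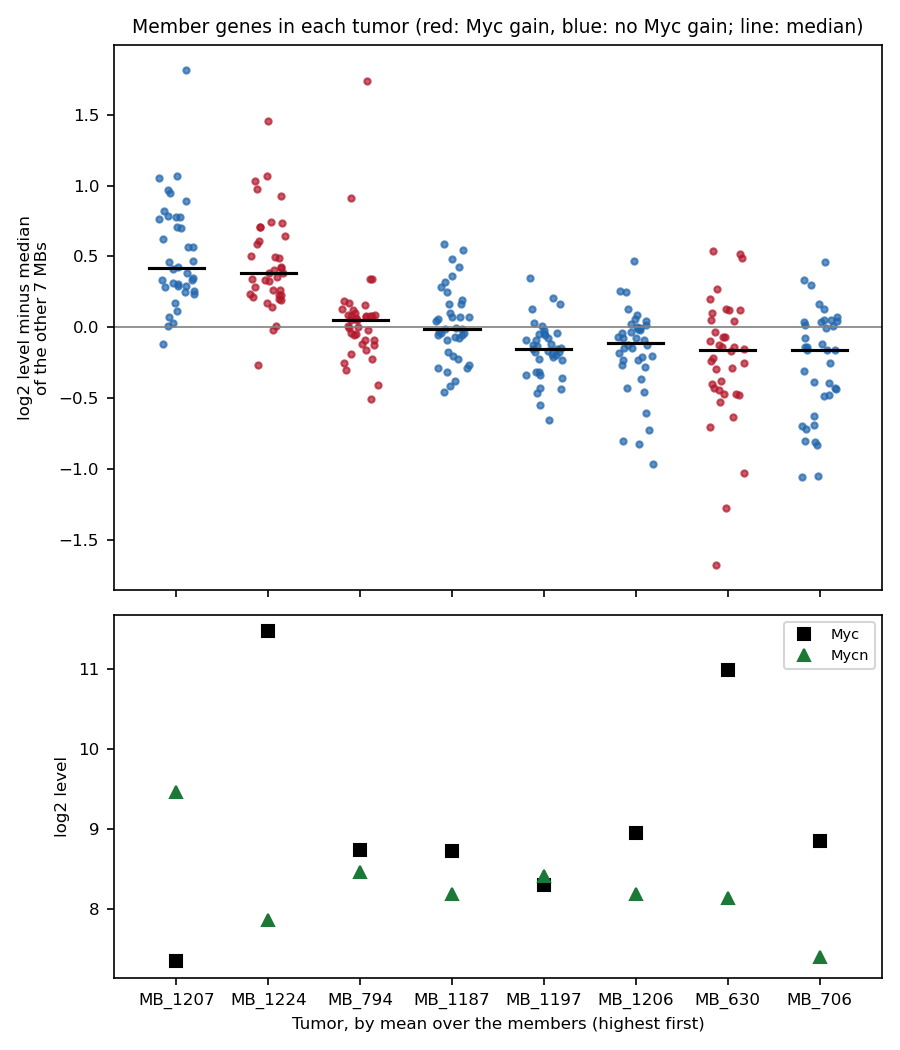
Upper panel, log2 level of each measured member minus its median over the other 7 MBs (1 point per gene, line at the median; red, Myc gain), with tumors ordered by their mean over the members. Lower panel, log2 level of Myc and Mycn in the same tumors. MB_1207 and MB_1224 lie above 0 for 37 and 36 members, and the order of the tumors matches neither Myc nor Mycn.

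The rest of the pathway was higher in the MBs too, with lower medians than the members. Of 109 other assembly genes, 73 (67.0%) rose against GNPs and 4 fell, with a median difference of 0.76. Against cerebellum 87 (79.8%) rose and 3 fell, with a median of 1.17. Beside these and the lists below, 32.4% and 39.8% of genes above 5 were called higher against GNPs and cerebellum, and 24.9% and 25.8% lower. Over all genes 18.7% and 22.2% were called higher, and 18.6% and 21.8% lower. The lists of other pathway genes hold genes of the same function, and were drawn up with earlier results of these data known. Of the 13 other polymerase I genes, 10 rose and none fell against GNPs, led by Tcof1, the treacle protein that recruits factors to ribosomal DNA (3.28, adjusted p = 2.72e-06, limma), and Taf1d (1.68). Polr1e, a polymerase I subunit, rose most against cerebellum (3.15), followed by Tcof1 (2.95), with 9 higher. Of the 40 other small subunit factors, 26 and 32 rose against GNPs and cerebellum and none fell; Rcl1 (2.16) and Wdr36 (2.10) led against GNPs, and Wdr46 (3.12) and Utp4 (2.28) against cerebellum. The 11 measured snoRNP assembly factors gave 9 and 10 rises and no fall, with Shq1, the chaperone of dyskerin (3.43 and 3.04), and Ruvbl1 (2.51 and 2.32) in front.

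The falls lay among the 45 other large subunit factors, of which 28 rose and 4 fell against GNPs, and 36 rose and 3 fell against cerebellum. Sbds, which helps to release a late factor from the large subunit, fell by 0.97 against GNPs (adjusted p = 0.00122, limma) and by 2.03 against cerebellum (adjusted p = 5.56e-06). Rrp1, the paralog of the member Rrp1b, fell by 1.48 (adjusted p = 9.76e-04) and 1.17 (adjusted p = 0.00318). The rises were led by Tma16 (2.32) and Rrp15 (2.14) against GNPs, and by Rrp15 (3.37) and Ddx31 (2.79) against cerebellum. Of the cytosolic ribosomal proteins, 44 of 79 listed could be measured, since many share probe sets with pseudogenes, and 37 rose against GNPs and 42 against cerebellum with no fall. Their median differences were 0.81 and 1.26, led by Rpl12 (2.72) and Rps20 (2.47) against GNPs and by Rpl14 (3.40) and Rps20 (3.30) against cerebellum.

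Between GNPs and cerebellum the ribosomal proteins had more calls than the members, 24 of 44 (54.5%) higher and none lower, led by Rps25 (1.64) and Rpl7 (1.10). Their median difference was 0.52, close to the 0.47 of the members. Called higher were 14.9% of all genes and 23.2% of genes above 5, and called lower 13.6% and 15.3%. Of the 109 other assembly genes 24 (22.0%), a share near that of genes above 5, were higher and 4 lower in GNPs. The largest were Polr1e (2.04) and Rrn3 (0.65) among polymerase I genes, Nop9 (1.36) and Wdr46 (1.13) among small subunit factors, Rrp15 (1.23) and Nip7 (1.08) among large subunit factors, and Znhit6 (1.48) and Nufip1 (0.69) among snoRNP assembly factors. The 4 that fell were Sbds (-1.07), Ddx24 (-0.94), Taf1a (-0.81) and Znhit3 (-0.75). By Myc gain no gene of these lists was called. Among the ribosomal proteins 9 of 44 stood higher in every MB with the gain than in any without it (Rps4x, Rps7, Rps14, Fau, Rpl6, Rpl7, Rpl7a, Rpl10a and Rpl39, the last near the lowest values of the arrays), by 0.10 to 0.21, where 1.26% of all genes did. None of the 109 assembly genes stood higher in this way and 4 stood lower, where 2.03% of all genes did.

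**Figure D5:**
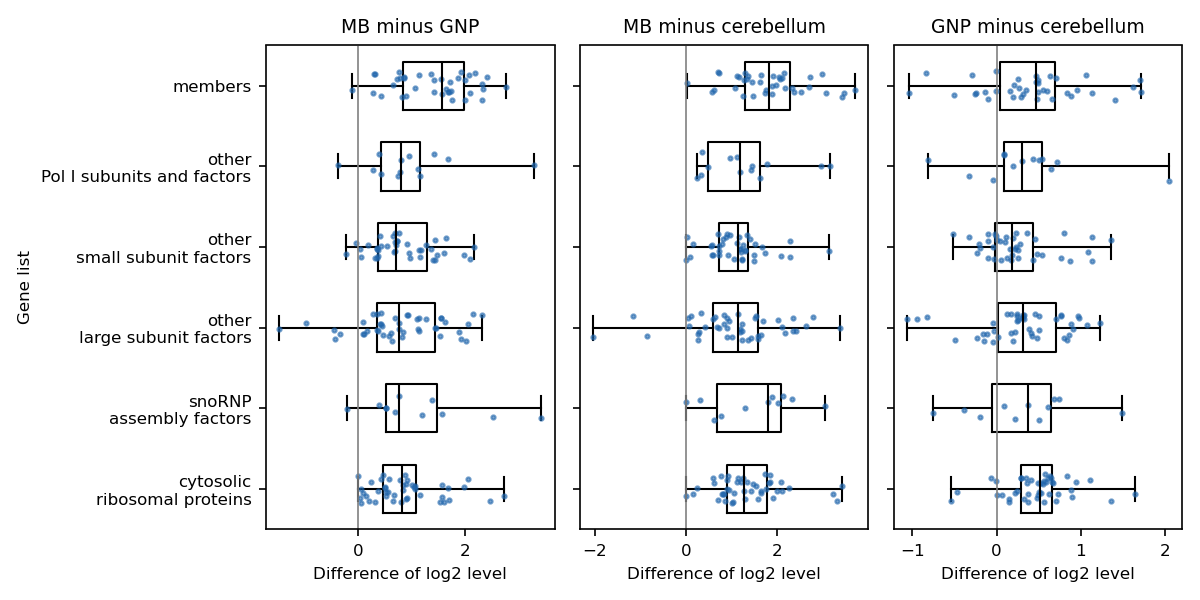
Difference of log2 level (x axis) of each gene (points) by gene list (y axis) for MBs against GNPs, MBs against cerebellum and GNPs against cerebellum; boxes span the quartiles with the median, and whiskers reach the lowest and highest gene. The members have the highest median in both tumor panels, 1.56 and 1.82, and a median of 0.47 between the normal tissues.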

How the data were processed

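Total RNA was isolated with Trizol, labelled with biotin and hybridised to Affymetrix mouse expression arrays. The authors processed the scanner files with the R library affy and GCRMA, a normalization that takes the sequence of a probe into account. The deposited log2 levels are 1 per probe set and array. The labels call the MBs tumor tissue, whereas the study's figure legend calls them cells and its methods list 6 of the 8 tumors among cultured lines; whether culture preceded the arrays was not given in the sources used here.

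Of 45101 probe sets, 34945 paired with 1 gene in the annotation used. A gene was the mean of those of its probe sets without the suffixes s or x, or of all if none was left, with no filter on level; 67 probe sets were averaged for the members, 18 members had 1, and Gar1 and Tsr1 had only suffixed ones. Of the members, 5 hold averaged probe sets below 5 in all samples, which shrinks the differences of Polr1a and Heatr1 from the normal tissues. In Ncl that probe set had a mean of 3.82 in the MBs beside 13.30, 10.21 and 11.43, which lowers the averaged level. It differed from cerebellum by 0.90, beside 1.24, 1.74 and 1.22. In Imp4 it differed from cerebellum by 0.22, beside 1.11 and 0.39, and from GNPs by 0.17, beside 0.08 and 0.66. In Nop16 that probe set differed by 0.53 from GNPs and the brighter one by -0.77, so the mean of -0.12 combines opposite signs. By Myc gain these probe sets of Nop16 differed by 0.71 and -0.02. Groups followed the labels, and Myc gain the study's table by mouse number. The 3 groups were fitted together in limma 3.58.1 (R 4.3.3; lmFit, eBayes), two-sided, with p-values adjusted over all 18193 genes by Benjamini-Hochberg and called under 0.05; Myc gain was fitted on the 8 MBs alone, with two-sided exact permutation tests for single members. The fit was tested on simulated data. No 2 arrays were identical. The number of arrays limits the precision, and each p-value sets a group difference against the spread between these samples.

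The members, lists and tests were chosen with earlier results of these data known. Values are given for all measured members, and for the 2 largest rises and falls past the test in each other list. Promoter sequences and snoRNA positions came from RefSeq (GRCm38.p6). Alternatives were other rules for probe sets, quantile normalization, arrays shifted to 1 common median, array weights, trend and robust estimates, a level filter, the methods' t-test, the compared groups alone, pooled normal samples, rearrangement as a term, tumors of genotype Xrcc4 c/- alone, and each sample left out. Leaving out probe sets below 5 on every array was an alternative added after seeing the data.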

Additional observations from a re-analysis of the deposited data

Results flagged for a closer look

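Among the 38 members and Myc and Mycn, 40 sets of 8 MB values were examined for a tumor far from the other 7 by Dixon's criterion, which chance alone meets in about 1 of 20. Polr1b stood at 5.56 in MB_630 and at 6.87 to 7.55 in the other MBs. In MB_706, Nop58 stood at 11.22 (11.71 to 12.01 in the others), Ddx10 at 7.13 (8.05 to 8.43) and Wdr12 at 8.09 (8.46 to 8.77). MB_706 is the library with the wide gap between 3′ and 5′ control probe sets (2.93), whose part in these values was not tested.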

How the results depend on the processing

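Against GNPs, 25 to 31 members rose with a sample left out and 28 to 36 under the other alternatives; against cerebellum 30 to 35 and 34 to 36; none fell. Between GNPs and cerebellum the count of 8 higher was 3 to 8 with a sample left out (3 without CGNP_2705, 4 without CGNP_2698, 5 without WC_2646 or WC_2647) and 3 by the methods' t-test after adjustment; 11 were higher with the probe set of highest signal. The count of 0 lower became 1 with arrays shifted to the same median (Bop1), 1 with the 2 groups alone (Rrp12) and 2 by the unadjusted t-test. By Myc gain, the unadjusted t-test gave 1 higher (Wdr43) and 1 lower (Bop1). No called difference changed sign; 95 sign changes lay among values called under neither setting. The median SD of members over the MBs was 0.35, and 0.30 without MB_706.

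The shift of arrays moved the median of all genes by -0.06, -0.19 and -0.13 in MBs against GNPs, MBs against cerebellum and GNPs against cerebellum, and the share of higher among called genes from 50.1% to 44.6%, from 50.5% to 27.0% and from 52.2% to 25.6%; the counts of members higher stayed 30, 35 and 8. With the 4 normal samples as 1 group, 36 members were higher in the MBs. That fit counts the 2 tissues as replicates and also changes the differences from those against GNPs. Noc4l went from 0.32 to 1.02 and Ddx10 from 0.27 to 1.08, while Bop1 went from 0.86 to 0.44 and lost its call.

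No paired analysis was possible because the groups share no mouse number.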
